A study of Caenorhabditis elegans with 20 samples.

Results

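Dopamine neurons were set against serotonin neurons in Caenorhabditis elegans, a nematode. The assay was TRAP, short for translating ribosome affinity purification, which immunoprecipitates the tagged ribosomes of chosen cells out of whole worms and sequences the RNA bound to them. The measure is the enrichment of a gene, the log2 of RPKM + 1 in TRAP minus the same in the whole-animal input of that replicate, and the comparison is the dopamine enrichment minus the serotonin enrichment. RPKM counts reads against the length of the gene and the depth of the library, so it is a level per length. Of 18917 genes in any deposited table of the series, 14031 were listed in both replicates of both strains and 14001 of these, with a mean of at least 1 RPKM, were tested. A further 100 genes were listed in both replicates of the dopamine strain and in neither of the serotonin strain, and 133 the other way round. No gene was listed for a replicate unless 1 of its fractions, TRAP or input, reached 1 RPKM.

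The dopamine strain, JAC379, and the serotonin strain, JAC433, each gave 2 TRAP and 2 input libraries, which makes 8 of the 20 libraries of the series. All animals were L4 larvae, synchronized by bleaching, fed OP50-1 bacteria at 22 °C and collected 46 to 48 h after L1 release. The promoters that drive the ribosome tag, and any other allele of the strains, are not given in the sources used here, so the cells purified are known only by the labels and by the marker genes below. Each comparison therefore sets 1 strain against 1 other.

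In the worm, dopamine is made by a few sensory neurons with mechanosensory endings (CEP, ADE and PDE), and serotonin mainly by the NSM, ADF and HSN neurons, which act in feeding, chemosensation and egg laying. Tyrosine hydroxylase (cat-2) commits the pathway to dopamine and tryptophan hydroxylase (tph-1) commits it to serotonin. The 2 routes share the GTP cyclohydrolase cat-4, which supplies the cofactor of both hydroxylases, the decarboxylase bas-1 and the vesicular transporter cat-1. Reuptake is by dat-1 for dopamine and mod-5 for serotonin, so these 4 committed genes mark the cells while the 3 shared ones do not separate them.

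The listed genes held 56.4 and 162.3 M reads (M stands for mega, so 1 M is a megaread) in dopamine TRAP, 239.7 and 123.5 M in dopamine input, 28.9 and 165.6 M in serotonin TRAP, and 51.9 and 87.7 M in serotonin input. A single library stood apart. In dopamine TRAP replicate 2, unc-54, the main body wall myosin heavy chain, took 20.5% of the reads and 6 myosin heavy chain genes together 27.7%, against 0.434% in dopamine TRAP replicate 1 and 1.98% and 1.72% in the serotonin TRAP libraries. The summed level of 38 body wall muscle genes was 7669 and 56120 RPKM in dopamine TRAP and 10224 and 16087 RPKM in serotonin TRAP. The part of these reads in the results below was not tested beyond the values given without that replicate. In such bulk samples, fewer cells of a type and less RNA per cell cannot be told apart.

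The genes that commit a neuron to dopamine followed the label. Tyrosine hydroxylase, cat-2, had 30.5 and 4.57 RPKM in dopamine TRAP and 0.503 and 0.486 RPKM in dopamine input. In the serotonin strain cat-2 was listed in replicate 1 alone, at 0.187 RPKM in TRAP and 1.10 RPKM in input, so it entered no test. The dopamine reuptake transporter dat-1 had 41.02 and 5.43 RPKM in dopamine TRAP, 1.76 and 0.985 RPKM in dopamine input, 0.246 and 1.17 RPKM in serotonin TRAP, and 1.76 and 1.66 RPKM in serotonin input. Both dopamine TRAP libraries were above every other library for dat-1, and the 2 serotonin TRAP libraries were below their inputs. The difference of enrichment of dat-1 was 3.53 ± 1.12 on the log2 scale (± is the SE of the limma fit without a replicate block, n = 2 per group throughout). In limma this did not pass without the block and passed with TRAP and input of a replicate as a block (adjusted p = 0.032).

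The genes that commit a neuron to serotonin were hardly listed in the dopamine strain. Tryptophan hydroxylase, tph-1, was listed in the serotonin strain alone, with 67.2 and 7.58 RPKM in TRAP and 3.47 and 0.528 RPKM in input. The serotonin transporter mod-5 had 7.79 and 1.46 RPKM in serotonin TRAP and 2.41 and 1.34 RPKM in serotonin input. Its dopamine values came from replicate 1 alone, 0.177 RPKM in TRAP and 1.60 RPKM in input. TRAP replicate 1 of mod-5 thus lay well above its input in the serotonin strain, whereas in replicate 2 the levels were close.

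The 3 shared genes of the pathway gave no call. The vesicular monoamine transporter cat-1 had 7.70 and 2.09 RPKM in dopamine TRAP against 0.414 and 0.772 RPKM in its input, and 25.1 and 9.23 RPKM in serotonin TRAP against 2.03 and 1.12 RPKM in its input. TRAP of cat-1 was thus above input in all 4 pairs. The difference was -0.98 ± 0.91. For the aromatic amino acid decarboxylase bas-1 and the GTP cyclohydrolase cat-4 the differences were -1.09 ± 0.70 and -1.10 ± 1.06, and neither was above its input in dopamine TRAP, where bas-1 had 11.4 and 11.2 RPKM against 23.3 and 36.95 RPKM.

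**Figure D1:**
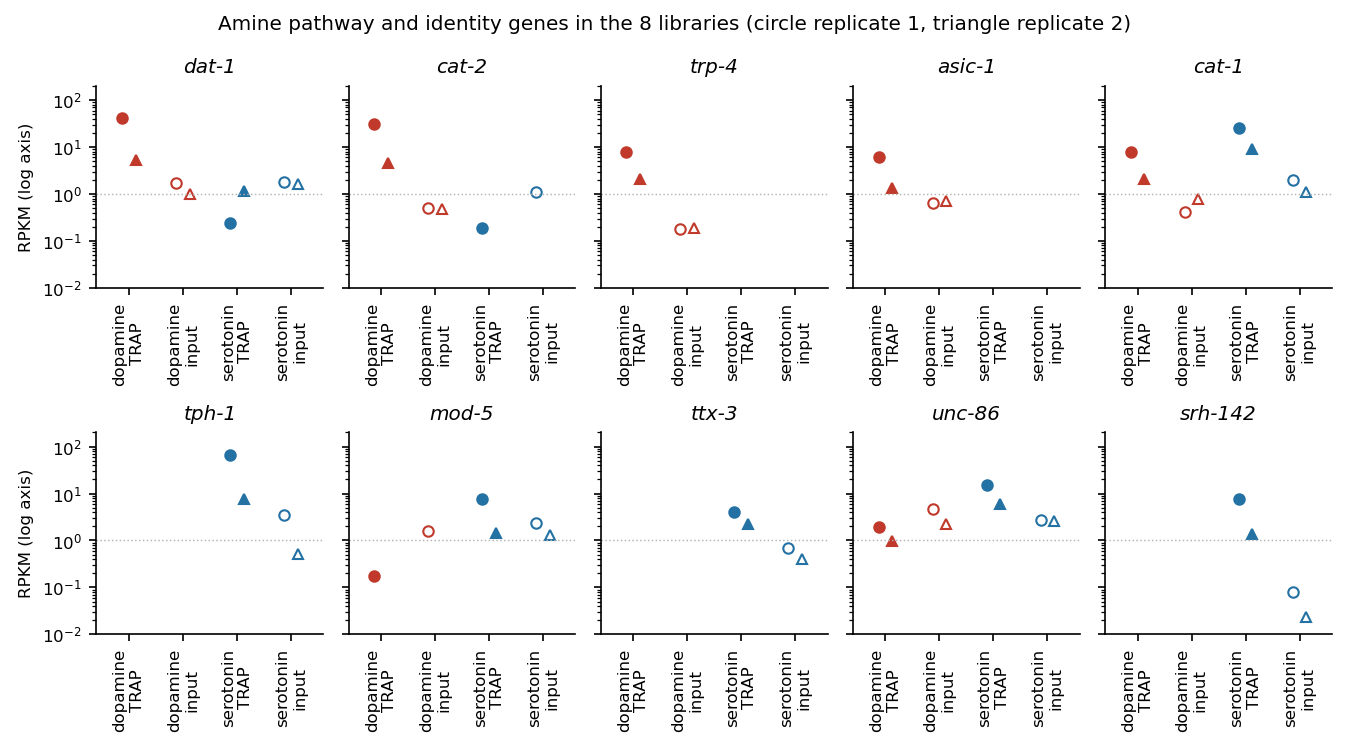
RPKM of pathway and marker genes in each library (log axis), by strain and fraction, with a circle for replicate 1, a triangle for replicate 2, and a dotted line at 1 RPKM. dat-1 reached 41.02 RPKM in dopamine TRAP and tph-1 67.2 RPKM in serotonin TRAP, and a gene with no point in a strain was not listed in that replicate.

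Among sensory and regulatory genes of dopamine neurons, the TRPN channel trp-4 and the DEG/ENaC channel asic-1 were listed in the dopamine strain alone, at 7.96 and 2.07 RPKM and at 6.03 and 1.36 RPKM in TRAP. Their inputs held 0.181 and 0.193 RPKM for trp-4 and 0.645 and 0.708 RPKM for asic-1. The ETS factor ast-1 and the Distal-less homologue ceh-43, which specify dopamine fate, had differences of 1.45 ± 0.94 and 1.51 ± 0.71, and the tubulin tba-9 one of 1.91 ± 1.33. The enrichments of these 3 genes did not overlap between strains, yet none passed in limma with or without the block. The Pax6 homologue vab-3 stood at 0.79 ± 0.80, the dopamine autoreceptor dop-2 at -0.02 ± 0.78 and the tetraspanin tsp-17 at -0.42 ± 0.56. The dopamine neuron list was chosen with earlier results of these data known. It holds flp-33 and R102.2, the highest and lowest differences of all tested genes, so its counts are not independent evidence. Of its 8 tested members, 5 lay higher in dopamine without overlap (1274 of all genes, 9.1%) and 1 lower (2609 of all genes, 18.6%).

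The lower one was R102.2, a gene of no given role that had been put in the dopamine list. It had 96.2 and 28.1 RPKM in dopamine TRAP, 128.4 and 180.1 RPKM in dopamine input, 8447 and 5349 RPKM in serotonin TRAP, and 98.6 and 215.4 RPKM in serotonin input. Both serotonin TRAP libraries of R102.2 were far above every other library, and the dopamine TRAP libraries were below their inputs. The data thus go against placing R102.2 among dopamine markers. Its difference was -7.04 ± 0.97, the lowest of all tested genes (limma with the block, adjusted p = 0.000551).

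The genes of the serotonin neuron list leaned to the serotonin side. That list too was chosen with earlier results of these data known, so its counts are not independent evidence. Of 13 tested members of that list, 6 lay lower in dopamine without overlap (18.6% of all genes) and none higher (9.1% of all genes). With the block 2 passed, both lower in dopamine (0.329% of all genes). One was the neuropeptide gene nlp-3, with 18.8 and 4.06 RPKM in dopamine TRAP, 67.98 and 24.2 RPKM in dopamine input, 229.8 and 173.7 RPKM in serotonin TRAP, and 58.8 and 42.3 RPKM in serotonin input. TRAP was below input in both dopamine replicates of nlp-3 and above it in both serotonin replicates, a difference of -4.04 ± 1.02 (limma with the block, adjusted p = 0.00117). The other was the insulin-like peptide gene ins-3, at -3.36 ± 0.91 (adjusted p = 0.0373 in the same limma fit).

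The regulators of serotonin fate split. The POU factor unc-86 had 1.95 and 0.980 RPKM in dopamine TRAP and 15.1 and 5.86 RPKM in serotonin TRAP, against 4.68 and 2.29 RPKM in dopamine input and 2.78 and 2.62 RPKM in serotonin input. The groups of unc-86 did not overlap, but the difference of -2.35 ± 0.77 did not pass in limma with the block (adjusted p = 0.213). The homeobox gene ceh-2 stood at -1.97 ± 0.52, the peptide gene flp-4 at -2.41 ± 0.99 and the TRPV channel ocr-2 at -1.74 ± 0.68, none past the test either. The Notch pathway factor lag-1, the zinc finger genes egl-46 and sem-4 and the peptide genes flp-28 and nlp-15 lay between -0.66 and 0.15 with overlapping groups. The peptide gene flp-5 stood at 1.01 ± 1.07 with 159.8 RPKM in dopamine TRAP replicate 1 and 24.1 RPKM in replicate 2, and it was -0.14 without dopamine replicate 1. The LIM homeobox gene ttx-3 was listed in the serotonin strain alone, at 4.09 and 2.26 RPKM in TRAP and 0.6996 and 0.398 RPKM in input. The DEG/ENaC channel del-3 had 43.6 and 8.94 RPKM in serotonin TRAP against 1.36 and 0.375 RPKM in its input, and in the dopamine strain was listed in replicate 1 alone, at 0.632 and 1.07 RPKM in TRAP and input. Its relative del-7 was listed in the serotonin strain alone, at 1.76 and 1.17 RPKM in TRAP and 0.114 and 0.180 RPKM in input. The neuropeptide receptor gene egl-6 stood at -0.45 ± 0.61, and mgl-3, egl-47 and irk-1 were listed in too few replicates to compare.

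Receptors for dopamine, serotonin and related amines gave no call. Of 10 tested, none lay higher in dopamine without overlap (9.1% of all genes) and 2 lower (18.6% of all genes, about the same share), the serotonin receptor ser-5 at -1.38 ± 0.71 and the tyramine receptor ser-2 at -0.94 ± 0.63. No receptor passed the test. The dopamine receptor genes dop-1 and dop-3 stood at 0.41 ± 0.61 and -0.52 ± 0.68. The receptor gene dop-5 was listed in the serotonin strain alone, with 10.8 and 3.32 RPKM in TRAP and 0.361 and 0.545 RPKM in input. Both TRAP libraries of dop-5 were above both inputs. The other receptor genes of the list were listed in some replicates only, and dop-6 in none.

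Across all 14001 genes the strains were close on average and the replicates did not repeat each other. The median difference was -0.09, with the middle 50% of genes between -0.43 and 0.24. Replicate by replicate, the difference had the same sign in 44.6% of genes, and the differences of replicates 1 and 2 correlated across genes at r = -0.0075 (genes are not independent). Over 2-fold enrichment in both replicates was found for 838 genes in the dopamine strain and 850 in the serotonin strain. No gene passed in limma without the block, where 18 genes (0.129%) had an unadjusted p below 0.05 on the dopamine side and 137 (0.979%) on the serotonin side, and edgeR on the recovered reads also called 0 (34 and 117 at an unadjusted p below 0.05). With the block 5 genes were higher in dopamine (0.0357%) and 46 lower (0.329%), and DESeq2 called 8 and 27. The threshold was an adjusted p of 0.05 throughout. Both replicate differences exceeded 1 on the log2 scale on the dopamine side in 91 genes (0.65%) and on the serotonin side in 330 (2.36%). Scaling moved the balance of the genes without overlap, which was 1274 higher and 2609 lower in the deposited RPKM. It was 2425 and 1657 with RLE size factors, which shifted the median of all genes by 0.18, and 2142 and 2129 after quantile normalization. It was 1403 and 1077 with libraries scaled without the 6 myosin genes, to an equal summed RPKM of the other genes. That scaling also evens out summed RPKM, which was 670637 in dopamine TRAP replicate 2 and 1224990 in replicate 1. Its shift is therefore not that of the myosin reads alone.

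**Figure D2:**
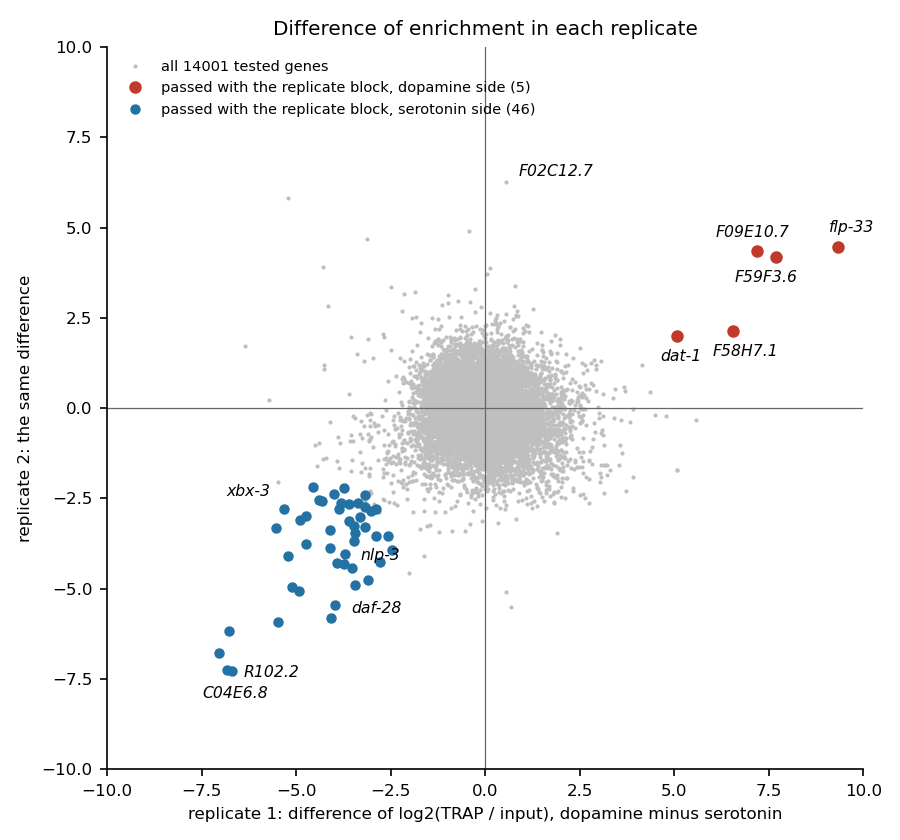
Difference of enrichment (log2, dopamine minus serotonin) in replicate 1 on the horizontal axis and in replicate 2 on the vertical axis, 1 point per tested gene, with genes that passed with the replicate block marked and named in part. The cloud has r = -0.0075, while the 5 marked genes of the dopamine side and the 46 of the serotonin side lie far out along the diagonal.

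Genes without overlap that were enriched in both replicates of the higher strain, with a mean TRAP level of at least 10 RPKM there, numbered 606 on the dopamine side (4.33%) and 393 on the serotonin side (2.81%). The genes below are the 10 of each side with the largest differences, so their sizes describe the choice. On the dopamine side the FMRFamide-like peptide gene flp-33 came first. It had 8760.3 and 381.4 RPKM in dopamine TRAP, 10.1 and 15.9 RPKM in dopamine input, 44.7 and 35.7 RPKM in serotonin TRAP, and 36.0 and 35.0 RPKM in serotonin input. Dopamine TRAP was above every other library in both replicates, and serotonin TRAP was near its input. The difference was 6.89 ± 1.67 (limma with the block, adjusted p = 0.00492), and without dopamine replicate 2 it was 9.46.

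F59F3.6, F09E10.7 and F58H7.1, protein-coding genes with no given role, had the next differences. F09E10.7 had 501.7 and 100.5 RPKM in dopamine TRAP, 24.6 and 18.2 RPKM in dopamine input, 5.38 and 10.3 RPKM in serotonin TRAP, and 46.6 and 42.5 RPKM in serotonin input. F59F3.6 had 247.2 and 37.5 RPKM in dopamine TRAP, 9.15 and 6.71 RPKM in dopamine input, 1.06 and 2.41 RPKM in serotonin TRAP, and 16.4 and 11.4 RPKM in serotonin input. In both genes TRAP was above input in each dopamine replicate and below it in each serotonin replicate, and replicate 1 was the higher of the dopamine TRAP libraries. The differences were 5.77 ± 1.01 for F09E10.7, 5.94 ± 1.15 for F59F3.6 and 4.35 ± 1.28 for F58H7.1, with adjusted p = 0.000361, 0.000773 and 0.0338 in limma with the block. These 3 genes with flp-33 and dat-1 are all 5 that passed on the dopamine side, and in each the difference was smaller in replicate 2 than in replicate 1. Left out of that set were F46G11.1 (twnk-1 in RefSeq) at 3.26 ± 1.16, M04B2.6 (nlp-88) at 2.67 ± 1.26 and F32D8.1 (cat-6) at 2.12 ± 1.32. The other two of the 10 were the non-coding RNA genes F02C12.7 at 3.40 ± 2.20 and Y37E3.24 at 2.40 ± 2.51, each listed at 0 in 1 serotonin TRAP library.

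Without dopamine replicate 2 the difference was 4.65 for dat-1, 7.09 for F59F3.6, 6.72 for F09E10.7 and 6.25 for F58H7.1, each above its value with all libraries. Without dopamine replicate 1 it was 2.42 for dat-1, 4.79 for F59F3.6, 4.82 for F09E10.7, 2.45 for F58H7.1 and 4.33 for flp-33, each below. The blocked limma fit called 2 genes higher and 13 lower without dopamine replicate 1, and 6 and 5 without dopamine replicate 2. In the fit without replicate 2 flp-33, F59F3.6, F09E10.7, F58H7.1, C04E6.8 and F28D1.6 passed, while dat-1 and R102.2 did not (both at adjusted p = 0.0654 in limma), nor did nlp-3 (adjusted p = 0.0662).

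On the serotonin side, R102.2 was followed by C04E6.8, with 1.89 and 0.465 RPKM in dopamine TRAP, 3.34 and 3.41 RPKM in dopamine input, 1538 and 435.7 RPKM in serotonin TRAP, and 21.3 and 7.51 RPKM in serotonin input. Both serotonin TRAP libraries of C04E6.8 were above every other library. F28D1.6 had 3.93 and 2.19 RPKM in dopamine TRAP, 17.5 and 19.2 RPKM in dopamine input, 325.9 and 314.7 RPKM in serotonin TRAP, and 10.2 and 26.9 RPKM in serotonin input. Its 2 serotonin TRAP libraries were nearly equal, and both dopamine TRAP libraries were below their inputs. The differences were -6.98 ± 1.03 for C04E6.8 and -6.47 ± 0.74 for F28D1.6, with adjusted p = 2.92e-05 and 5.71e-05 in limma with the block.

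The remaining genes of the largest 10 all passed with the block. They were the pseudogene Y41E3.5 at -6.92 ± 1.10, F45E12.6 at -5.71 ± 1.12, C33A12.4 at -5.03 ± 1.48, F58B4.3 (nssp-63 in RefSeq) at -4.997 ± 0.78 and R102.1 at -4.94 ± 0.82. R102.1 and R102.2 are neighbouring genes in RefSeq, and reads may not be split cleanly between neighbours. The insulin-like peptide genes daf-28 and ins-24 stood at -4.71 ± 1.21 and -4.65 ± 0.89, daf-28 with 15.9 and 16.8 RPKM in dopamine TRAP and 1845 and 639.4 RPKM in serotonin TRAP.

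The 46 genes that were lower with the block ranged from -7.04 to -2.80. TRAP exceeded input in both serotonin replicates in 45 of them and lay below input in both dopamine replicates in 42. The genes were called on these same values, so both counts describe the choice, and the shares of all genes were not counted. The median enrichment of all genes was itself below input, at -0.82 and -0.44 in the dopamine replicates and -0.51 and -0.40 in the serotonin ones. The 46 included the peptide genes flp-34 at -3.89 ± 0.62, flp-19 at -3.17 ± 0.84, the G protein gamma gene gpc-1 at -3.47 ± 0.86 and the neuronal calcium sensor ncs-1 at -2.97 ± 0.84. Names chosen after their values were seen were 3 xbx genes of 4 tested, xbx-3, xbx-5 and xbx-9, named for the X-box promoter element of ciliated neurons, and 8 genes with nssp symbols in RefSeq. Over all genes 0.329% passed on this side, and of 18 ciliated neuron genes 1 passed, xbx-3. Of all 82 nssp genes tested, 29 lay lower without overlap and 3 higher, with a median of -0.29, where 18.6% of all genes lay lower and 9.1% higher.

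With each fraction taken alone, calls came from TRAP and not from input. Dopamine TRAP against serotonin TRAP gave 0 genes higher and 18 lower (0.129%) in limma without the block, of which 17 also passed the blocked test of enrichment. Leaving out 1 library or replicate at a time gave 0 to 6 calls on the serotonin side, edgeR called 0 and DESeq2 called 29 higher and 136 lower. Limma with the replicate number over both strains as a block, an alternative chosen after seeing the data, called 9 higher and 134 lower in TRAP and 1 lower in input. The 18 called without it included R102.2, C04E6.8, F28D1.6, flp-34, ins-24, xbx-3, the arrestin-domain gene arrd-4 and the cytochrome P450 gene cyp-36A1, with TRAP differences between -8.64 and -3.41 and input differences between -1.65 and 0.23. Dopamine input against serotonin input gave 0 calls in limma (18 higher, 0.129%, and 52 lower, 0.371%, at an unadjusted p below 0.05) and 0 in edgeR, while DESeq2 called 1 lower. Of the 51 genes that passed with the block, 47 had an input difference within 1, and the share of all genes was not counted. The others were flp-33 at -1.41, F09E10.7 at -1.04, C04E6.8 at -1.65 and daf-28 at -1.26. A lower dopamine input adds to the difference of enrichment of flp-33 and F09E10.7 and makes that of C04E6.8 and daf-28 smaller in size. The input differences that were largest lay elsewhere, as in Y82E9BR.22, with 3.02 and 1.98 RPKM in dopamine input and 106.4 and 51.9 RPKM in serotonin input. Its enrichment difference was 0.37 ± 0.91, since its TRAP levels of 2.47 and 2.34 RPKM in dopamine and 102.7 and 30.8 RPKM in serotonin followed the inputs.

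Neuropeptide genes were found on both sides. Of 99 tested, 6 lay higher without overlap and 30 lower (9.1% and 18.6% of all genes), 2 and 16 had both replicate differences past 1 (0.65% and 2.36% of all genes), and 1 and 5 passed with the block, flp-33 on the dopamine side and flp-19, flp-34, ins-3, ins-24 and nlp-3 on the other. Their median difference was -0.26, against -0.09 for all genes, and it lay between -1.25 and 0.29 over the other settings and left-out libraries. The median was 0.21 in replicate 1 and -0.86 in replicate 2, so its direction was not shared by the replicates. Insulin-like genes had the lowest median, with 1 higher and 12 lower of 26 and a median of -0.81, against -0.17 for 30 flp genes and -0.22 for 40 nlp genes. On the dopamine side flp-12 stood at 1.86 ± 1.23, not past the test, with 389.0 and 54.7 RPKM in dopamine TRAP and 55.5 and 39.5 RPKM in serotonin TRAP. The groups of flp-12 did not overlap.

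Genes of other neurons were set against the 9.1% of all genes that lay higher without overlap and the 18.6% that lay lower. Of 29 pan-neuronal genes 2 lay higher and 8 lower, with unc-119, a neuronal trafficking gene, at -1.72 ± 0.60. All 4 non-overlapping genes of 6 cholinergic ones were lower, among them the vesicular acetylcholine transporter unc-17 at -1.36 ± 0.70. Ciliated neuron genes gave 1 higher and 6 lower of 18, and chemosensory genes 0 and 5 of 6, with the G protein genes odr-3 at -2.43 ± 0.67 and gpa-2 at -2.14 ± 0.61. The 5 include ocr-2, which is also in the serotonin neuron list. Touch neuron genes gave 1 higher and 0 lower of 8 with a median of 0.05, and GABAergic genes 0 and 0 of 5. Of these lists 1 gene, xbx-3, passed with the block.

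The chemosensory list also held daf-7, a TGF-beta ligand of sensory neurons, which set the dopamine replicates apart. It had 115.3 and 3.32 RPKM in dopamine TRAP, 2.34 and 2.37 RPKM in dopamine input, 3.57 and 4.85 RPKM in serotonin TRAP, and 1.96 and 2.97 RPKM in serotonin input. Only dopamine TRAP replicate 1 was high, so the difference of 2.15 ± 1.76 rests on 1 library.

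The lists of genes of other tissues held no call with the block. Outside these lists, F21C10.11 passed on the serotonin side and had log2 enrichments of 2.01 and 2.23 in intestine TRAP. None of 38 body wall muscle genes lay apart in either direction, although summed muscle RPKM was highest in dopamine TRAP replicate 2, and their median was 0.18 with all libraries and -0.49 without dopamine replicate 2. Over all genes 9.1% lay higher without overlap and 18.6% lower. Intestinal genes gave 0 higher and 12 lower of 35, with the saposin-like gene spp-5 at -1.53 ± 1.42. Summed intestinal RPKM was 16539 and 5770 in dopamine TRAP and 18939 and 19425 in serotonin TRAP. Glial genes, which neighbour the CEP neurons, gave 1 higher and 3 lower of 10, with summed RPKM of 90.5 and 106.8 in dopamine TRAP and 73.3 and 159.2 in serotonin TRAP. Germline genes gave 7 higher and 0 lower of 28 and sperm genes 6 and 0 of 34, with medians of 0.23 and 0.25, which were -0.15 and 0.13 without dopamine replicate 2. The major sperm protein genes, a sperm family listed apart, gave 1 higher and 6 lower of 31, with a median of -0.59 that was -1.47 without dopamine replicate 1 and 0.31 without dopamine replicate 2. Ribosomal protein genes had a median of -0.64, which was -2.39 without dopamine replicate 1 and 0.91 without dopamine replicate 2, and 2 of 79 lay apart. The part of these tissues' RNA in the neuronal results was not tested.

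**Figure D3:**
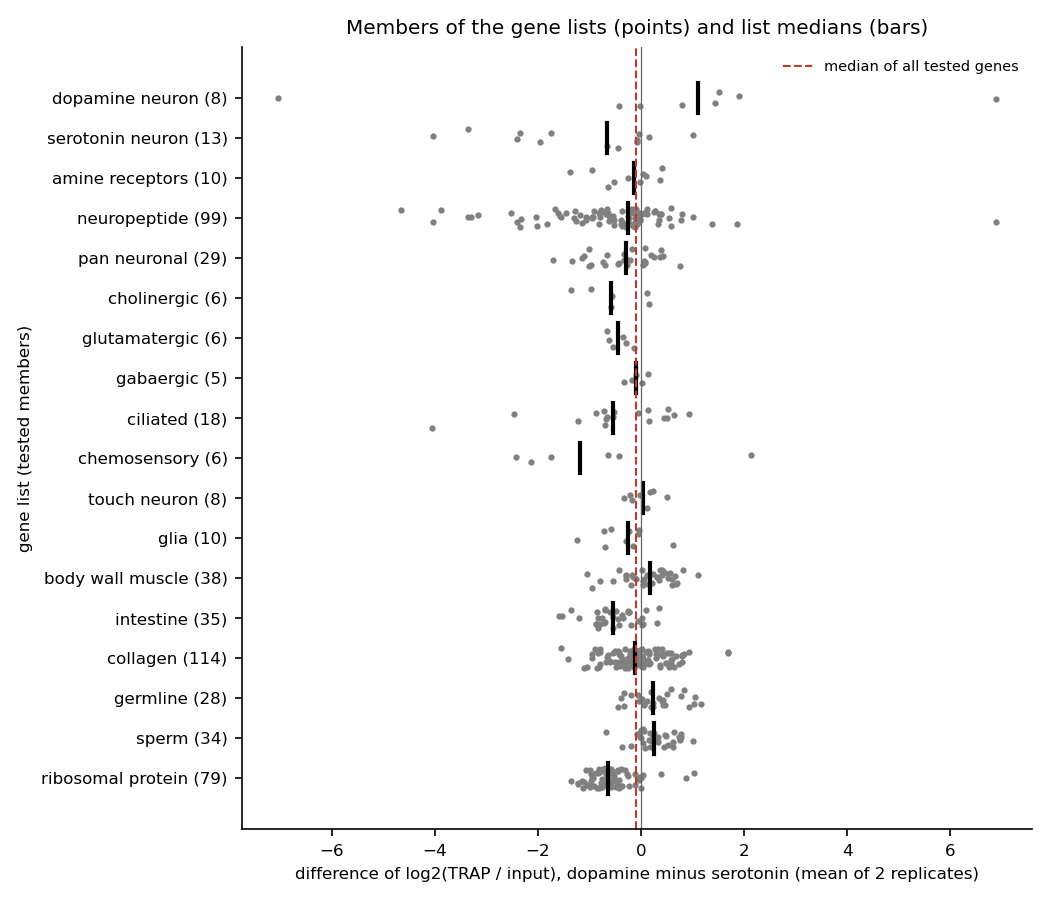
Difference of enrichment (log2, dopamine minus serotonin) of the tested members of each gene list, 1 point per gene with a bar at the list median and a dashed line at the median of all genes (-0.09). The dopamine neuron list, which holds flp-33 and R102.2, has a median of 1.12 and the serotonin neuron list of -0.66, while body wall muscle genes lie around 0.18.

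Purifications of other strains give a readout that took no part in the choice of genes. In the neuronal TRAP of the same series, 23.1% of the tested genes listed there exceeded a log2 enrichment of 1 in both replicates. On the dopamine side this held for all 5 genes that passed with the block and for 9 of the 10 largest, the exception being Y37E3.24. On the serotonin side it held for 44 of 45 listed genes that passed and for all 10 of the largest. Muscle TRAP exceeded the same level for none of the 10 largest genes on either side that were listed there, and intestine TRAP likewise. Of genes that passed on the serotonin side, 4 of 24 listed exceeded it in muscle TRAP (16.7%, against 6.9% of all tested genes). In intestine TRAP 1 of 44 did (2.27%, against 1.92% of all tested genes). On the dopamine side 0 of 3 did in muscle and 0 of 4 in intestine. Beyond the extremes the sides differed in share. Of all genes enriched without overlap at 10 RPKM or more, 89 of 583 on the dopamine side were neuronal-enriched (15.3%), below the share of all genes, and 179 of 378 on the serotonin side (47.4%). The difference between these shares was not tested, since genes of 1 library set are not replicates.

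**Figure D4:**
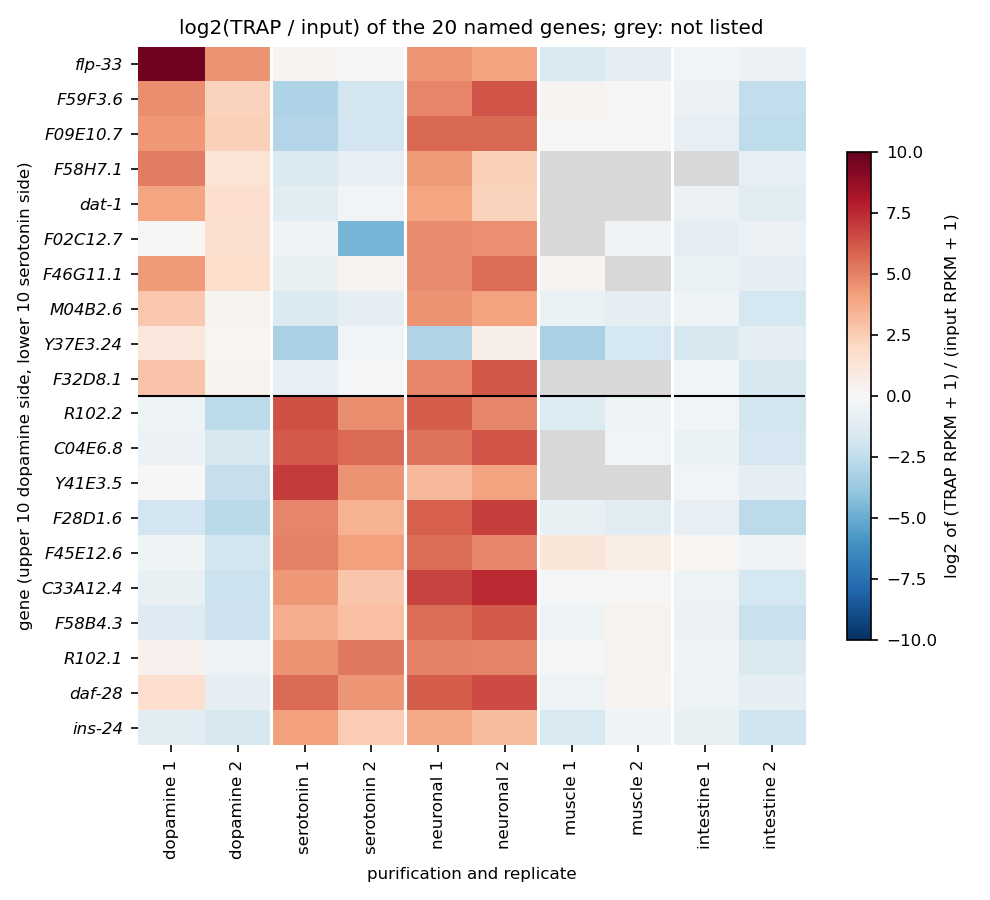
Enrichment (log2 of RPKM + 1, TRAP minus input) of the 10 genes with the largest differences on each side, in each replicate of the 5 purifications, as colour from blue (TRAP below input) to red (above). flp-33 (4.39 and 4.04 in the neuronal replicates) on the dopamine side and R102.2 (6.07 and 4.92) on the serotonin side are both enriched in the neuronal purification, and grey cells were not listed.

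Genes listed in a single strain entered no test and are described by their levels. Listing needed 1 RPKM in a fraction, so the choice itself favours genes that are high in the strain that lists them. The share of all genes with TRAP above input in both replicates was not counted. Of the 100 listed in the dopamine strain alone, TRAP exceeded input in both replicates in 59, and 51 were protein-coding and 20 piRNA genes. Of the 133 listed in the serotonin strain alone, TRAP exceeded input in both replicates in 103, and 121 were protein-coding. Chemoreceptor names of the sr and str families, which encode G protein-coupled receptors of sensory neurons, made up 22 of the 133 and 0 of the 100. The share of such names among all listed genes was not counted, so these counts are not read as a trait of either strain. Among the 22, srh-142, known from the ADF neurons, had 7.72 and 1.34 RPKM in serotonin TRAP and 0.078 and 0.0231 RPKM in serotonin input. Neuronal TRAP listed 14 of the 100 and 82 of the 133 in both replicates, and of these 12 and 77 were enriched over 2-fold in both. Among all tested genes listed there, the share was 23.1%, which is not a like background. A gene that is low in input reaches the listing limit in the neuronal strain mostly by a high TRAP level. Its enrichment there was thus largely fixed by the listing, and nothing is concluded from these counts.

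The genes with the highest lower TRAP level of these sets were mir-5548, 21ur-13319, C06C3.3, 21ur-2736 and F40D4.13 for dopamine, and F02D8.1, W09H1.1, tph-1, T06G6.3 and Y57G11B.6 for serotonin. C06C3.3 had 49.4 and 4.84 RPKM in dopamine TRAP and 1.06 and 0.652 RPKM in dopamine input. F02D8.1 had 22.8 and 21.5 RPKM in serotonin TRAP and 0.325 and 0.547 RPKM in serotonin input, so the TRAP libraries of F02D8.1 were close to each other while those of C06C3.3 were not. Levels just over the listing limit were common, as 17 of the 100 and 36 of the 133 reached 2 RPKM in both TRAP libraries.

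**Figure D5:**
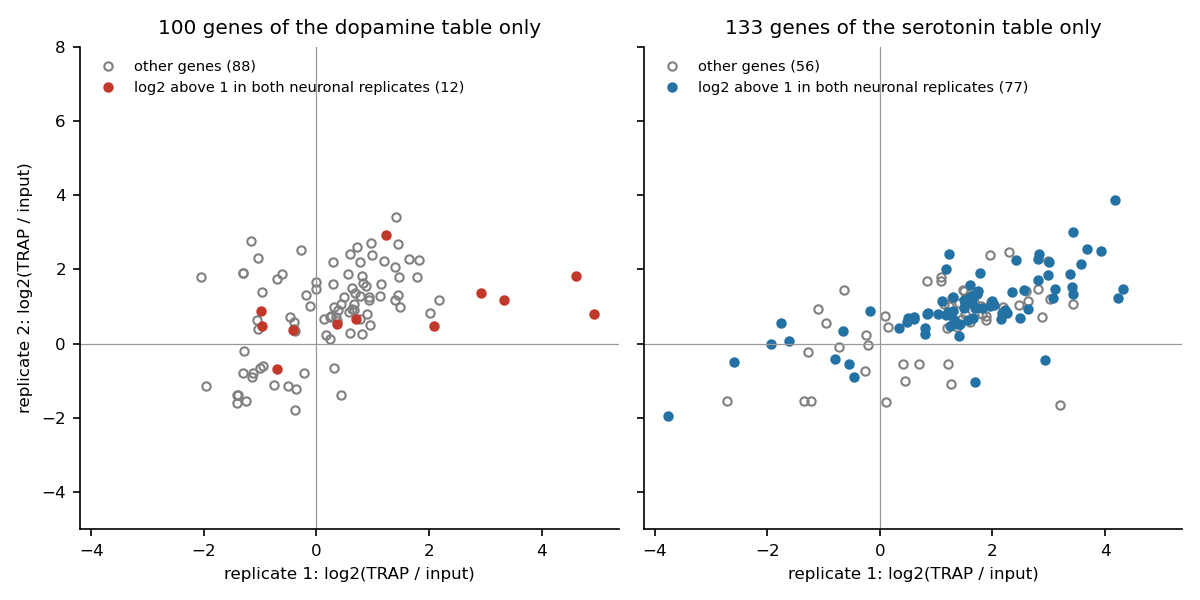
Enrichment (log2 of RPKM + 1, TRAP minus input) in replicate 1 on the horizontal axis and replicate 2 on the vertical axis for the 100 genes listed in the dopamine strain alone (left) and the 133 listed in the serotonin strain alone (right), 1 point per gene. The upper right part of each plot, above 0 in both replicates, holds 59 dopamine and 103 serotonin genes, and filled points are the 12 and 77 genes above 1 in both neuronal replicates.

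The authors' deposited lists of 564 dopaminergic and 756 serotonergic genes, which by their header have over 2-fold enrichment in both replicates and no similar detection in the other strain, share no gene. By that rule they come from these same libraries, so their direction is not independent evidence. Over all tested genes 9.1% lay on the dopamine side without overlap and 18.6% on the serotonin side. Of the 415 tested genes in the authors' deposited dopaminergic list, 213 lay on the dopamine side without overlap and 0 on the other. Of the 528 tested in the serotonergic one, 184 lay on the serotonin side and 1 on the other. The dopaminergic list held 6 of the 10 largest dopamine-side genes and the serotonergic list all 10 of the largest serotonin-side genes. In the neuronal purification 19.3% of the listed dopaminergic genes and 54.1% of the serotonergic ones were enriched over 2-fold in both replicates. The share of all tested genes listed there was 23.1%, above that of the dopaminergic list.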

How the data were processed

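The submitters' processing notes name STAR and HTSeq; their versions and genome build are not given in the sources used here. The deposited tables give, per the file headers, RPKM, counts and a TRAP over input ratio by the authors for 2 biological replicates; nothing says more of separate cultures, so p-values here reflect only how far these libraries spread. The values show that in each replicate one deposited column holds counts plus 1 and the other the same times a factor, a scaled signal. Undoing the factor gave whole reads (within 1) for 100% of values, which rounding fixed in advance except in dopamine TRAP replicate 1 (factor 5.66). Recovered reads were also set against RPKM in 9051 genes with many reads. After the mean of each gene was removed, the log2 of their ratio had an SD of 1.8e-09 to 1.9e-09 within each library.

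Log2 of the deposited RPKM + 1 was fitted with limma-trend 3.58.1 (R 4.3.3) on 8 libraries and 14001 genes, without a block, with Benjamini-Hochberg adjustment over all of them. Deviations of TRAP and input of a replicate from their group means correlated at 0.516 in dopamine and 0.696 in serotonin, and the headers set them side by side, so the block is given beside results. Deviations of libraries of the same number in different strains correlated at 0.362 to 0.508 too. The block left 2 residual and 14.3 prior degrees of freedom, against 4 and 4.29 without it. With the block the p-values thus rest mostly on a spread pooled over genes, and less on the spread of the gene's own replicates. edgeR 4.0.16 and DESeq2 1.42.0 on recovered reads were alternatives. Scripts were tested on simulated data.

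Named genes were the members of the pathway, marker and receptor lists, the 10 largest differences on each side under the filter stated in the text, the 5 single-strain genes per strain with the highest lower TRAP level, 2 extremes on each side of other lists, and the extremes of the input contrast. Members and gene lists were chosen with earlier results of these data known. Of 18917 gene names, 18542 matched RefSeq, used for names and kinds of RNA; 11 names that a spreadsheet had turned into numbers went by their identifier.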

Additional observations from a re-analysis of the deposited data

Results flagged for a closer look

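Among the pathway, marker and receptor genes and the 10 genes of largest difference on each side, 22 had TRAP above input in every replicate of one strain and below it in every replicate of the other. Genes outside these sets, such as flp-34 and gpc-1, were not counted here, so no share of all genes stands beside this count. The 10 genes of each side were chosen for TRAP above input in the higher strain, so that part was fixed by the choice. For the 22, the difference of enrichment was tested in limma, and none passed without the replicate block. On the dopamine side these were dat-1 at 3.53, F59F3.6 at 5.94, F09E10.7 at 5.77 and F58H7.1 at 4.35, which passed with the block. Also on that side were ceh-43 at 1.51, tba-9 at 1.91, F02C12.7 at 3.40, M04B2.6 at 2.67, Y37E3.24 at 2.40 and F32D8.1 at 2.12, which did not pass with it. On the serotonin side R102.2 at -7.04, C04E6.8 at -6.98, Y41E3.5 at -6.92, F28D1.6 at -6.47, F45E12.6 at -5.71, C33A12.4 at -5.03, F58B4.3 at -4.997, ins-24 at -4.65, nlp-3 at -4.04 and ins-3 at -3.36 passed with the block, while unc-86 at -2.35 and ceh-2 at -1.97 did not.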

How the results depend on the processing

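Of 46 named genes, 38 kept the sign of their difference in each of up to 28 other settings. With the replicate block 5 genes were called higher in dopamine and 46 lower, with the block and RLE scaling 2 and 30 (all 32 among the 51), with a block on the replicate number over both strains 2 and 18, and with DESeq2 8 and 27. The TRAP contrast gave 18 lower, against 6 with a pseudocount of 0.1, 8 with a mean of at least 5 RPKM, 0 in edgeR, 136 lower and 29 higher in DESeq2, 134 and 9 with the block on the number, 1 higher after quantile normalization and 5 higher when scaled without myosin genes. The input contrast gave 1 lower gene in DESeq2 and 1 with the block on the number. The scaling without myosin genes, which set the summed RPKM of the other genes equal, also called 1 gene lower for enrichment. The strain by replicate block cannot estimate contrasts between strains within a fraction, so it gave no value there. Left-out libraries or replicates gave 0 to 6 lower and 0 to 2 higher genes in TRAP, and for enrichment without the block 0 to 1 higher and 0 lower. With the block they gave 2 higher and 13 lower without dopamine replicate 1, 6 and 5 without dopamine replicate 2, 8 and 30 without serotonin replicate 1, and 14 and 99 without serotonin replicate 2. Without dopamine TRAP replicate 2 alone, enrichment gave 1 higher gene. Genes without overlap numbered 2425 higher and 1657 lower with RLE, 2142 higher with quantile and 1077 lower when scaled without myosin genes. Both differences past 1 numbered 178 higher with RLE and 156 with quantile, 173 and 497 with a pseudocount of 0.1, 28 and 159 with 5, 225 and 172 without myosin genes, and 174 and 535 with the authors' deposited ratio. Single-strain genes numbered 868 and 892 when 1 replicate sufficed and 17 and 36 at 2 RPKM in both TRAP libraries. 4 genes near 0 changed sign with scaling or test. dop-2 gave 0.19 with RLE (block or not), 0.23 with quantile, 0.11 with a pseudocount of 5, 0.16 in edgeR, 0.19 in DESeq2 and 0.23 without myosin genes. egl-46 gave 0.032 with RLE, 0.17 with quantile, 0.00075 with a pseudocount of 0.1 and 0.053 without myosin genes. flp-28 gave 0.15 with RLE, 0.054 with quantile, 0.012 in edgeR, 0.0053 in DESeq2 and 0.26 without myosin genes. nlp-15 gave 0.12 with RLE, 0.011 with a pseudocount of 5, 0.25 in edgeR, 0.28 in DESeq2 and 0.21 without myosin genes. With left-out libraries the ranges were -0.76 to 0.71 for dop-2, -0.71 to 0.54 for egl-46, -1.32 to 1.23 for flp-28, -0.70 to 0.56 for nlp-15, -1.48 to 0.17 for lag-1, -0.40 to 0.71 for sem-4, -0.34 to 2.35 for flp-5 and -0.67 to 5.47 for Y37E3.24. Leaving out whole replicates turned dop-2 (0.47 without dopamine replicate 2, 0.41 without serotonin replicate 1), egl-46 (0.21 without dopamine replicate 1, 0.43 without serotonin replicate 2), lag-1 (0.17 without dopamine replicate 1), sem-4 (-0.40 without serotonin replicate 1), flp-5 (-0.14 without dopamine replicate 1), flp-28 (1.23 without dopamine replicate 2) and nlp-15 (0.017 without dopamine replicate 2, 0.28 without serotonin replicate 2), while leaving out serotonin TRAP replicate 1 alone turned Y37E3.24. The cause was not tested in any of these. The settings with the block on the number, the block with left-out replicates and the scaling without myosin genes were chosen after seeing the data.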
